A study of Mus musculus with 63 samples.

Results

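The axon guidance families described here are the semaphorins with their plexin and neuropilin receptors, the ephrins with their Eph receptors, the Slits with their Robo receptors, and the netrins with Dcc and the Unc5 receptors. Members were chosen by gene symbol and by level: a family symbol counted as a member when it reached 1 TPM (transcripts relative to all transcripts of a library, scaled for length) in at least 3 of the 63 libraries. This gave 64 members, 33 ligands and 31 receptors, of 69 matching symbols and 23078 genes in the table. Level therefore chose the members, and their being detected is not a result. The 5 symbols that were not members were Sema3d (at least 1 TPM in 2 libraries, highest value 1.71 TPM), Robo4 (2 libraries, 8.52 TPM), Plxnb3 (1 library, 1.04 TPM), Epha1 (0 libraries, 0.902 TPM) and Ntn5 (0 libraries, 0.261 TPM). The members nearest to the limit were Epha2 (9 libraries, highest value 10.6 TPM), Sema3b (12 libraries, 3.46 TPM), Epha6 (24 libraries, 6.82 TPM) and Robo3 (28 libraries, 83.4 TPM). Of the 64 members, 50 reached 1 TPM in all 63 libraries and 14 did not.

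The libraries came from sorted cells of the dorsal cortex of C57Bl/6 mouse embryos in which Ski, a transcriptional co-repressor of the TGF-beta and BMP pathways, was knocked out; every library carries this genotype, and no wild type was analysed here. Newborn neurons (NBN) were sorted by a Tbr2::GFP reporter at E15.5, E16.5, E17.5 and E18.5 (3, 3, 4 and 3 libraries). Neural stem cells (NSC) were sorted by a Hes5::GFP reporter on each day of E11.5 to E18.5 (3, 4, 3, 4, 3, 3, 3 and 3 libraries). Basal progenitors (BP), the neurogenic progenitors away from the ventricular surface, were sorted by Tbr2::GFP on each day of E12.5 to E18.5 (2, 3, 6, 3, 3, 4 and 3 libraries). How NBN and BP were separated within the one reporter sort was not stated in the labels, and NBN libraries begin at E15.5. Nothing in the labels says whether libraries of a group came from separate litters or embryos, so p-values measure the spread between these libraries, which may be partly technical.

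Guidance cues tell a growing axon or a migrating cell where to go. Semaphorins mostly repel: secreted class 3 members bind neuropilins, which signal through plexins, while the membrane-bound classes bind plexins directly. Ephrins sit on one cell surface and Eph receptor tyrosine kinases on the other, so that contact can signal into both cells. Slits are secreted repellents read by Robo receptors, and netrins attract through Dcc and repel when Unc5 receptors take part. In the embryonic cortex the same molecules also act on the radial migration of neurons out of the germinal zones and on the axons of callosal and subcortical projection neurons.

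Libraries of one group correlated with each other at 0.946 to 0.996 (Pearson, log2(TPM + 1)). The radial glia marker sum was 190, 345 and 493.4 TPM (lowest, median and highest) in NBN, 1131, 2401 and 6664 TPM in NSC, and 483, 641 and 896 TPM in BP. The basal progenitor marker sum was 117, 143 and 362 TPM in NBN, 365, 805 and 1756 TPM in NSC, and 916, 1228 and 1481 TPM in BP. The neuron marker sum was 6559, 8095 and 9213 TPM in NBN, 735, 3790 and 6420 TPM in NSC, and 3958, 5031 and 6278 TPM in BP. Each list thus had its highest median in the cells named for it, but neuron markers were abundant in every sort, and the interneuron marker sum was 15, 35.8 and 65 TPM in NBN, 83.6, 223 and 918 TPM in NSC, and 12.3, 29.2 and 52.9 TPM in BP. Fewer cells of a type and less RNA per cell cannot be told apart in these bulk libraries. Ski itself had 36.7, 43.3 and 53.1 TPM in NBN, 23.04, 36.6 and 50.1 TPM in NSC, and 17.2, 28.3 and 37.4 TPM in BP. The labels do not say which exons were removed, so a value over the whole gene does not check the label. All libraries carry the label Female, but 39 of 63 had Y-linked transcripts (4 genes summing to 10 TPM or more), 26 had Xist at 10 TPM or more, and 2 had both.

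Levels in TPM are per length and can be set side by side between genes. Across the 19 groups, 24 members had a highest group mean of at least 100 TPM, and 9 stayed under 10 TPM in every group. Efnb2, a transmembrane ephrin-B ligand, had the highest mean over libraries of all 64 members in NBN (304 TPM), in NSC (258 TPM) and in BP (321 TPM), and made up 61.9 ± 4.76%, 50.6 ± 9.06% and 59.3 ± 7.497% of the ephrin-B sum there (SD over libraries). The next member in order was Robo2 in NBN (191 TPM), Efnb1 in NSC (174 TPM) and the semaphorin receptor Plxna2 in BP (235 TPM). The group with the highest mean was a BP group for 30 members, an NBN group for 17 and an NSC group for 17. The cell types differ in their number of groups, with the fewest in NBN, and the split over all genes was not counted. These counts therefore only describe the members. The range of group means was at least 10-fold for 19 members and under 2-fold for 4. The widest were Robo3 (1325-fold), Sema3c (84.4-fold), Unc5d (83.6-fold), Epha2 (45.9-fold), Epha6 (40.8-fold), Ntn1 (35.8-fold) and Nrp1 (25.7-fold). These are ratios of mean TPM without a pseudocount. The lowest group mean was under 1 TPM for Robo3 (0.0543 TPM), Epha2 (0.0987 TPM), Epha6 (0.162 TPM) and Ntn1 (0.906 TPM), so their ratios depend on very low values.

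**Figure D1:**
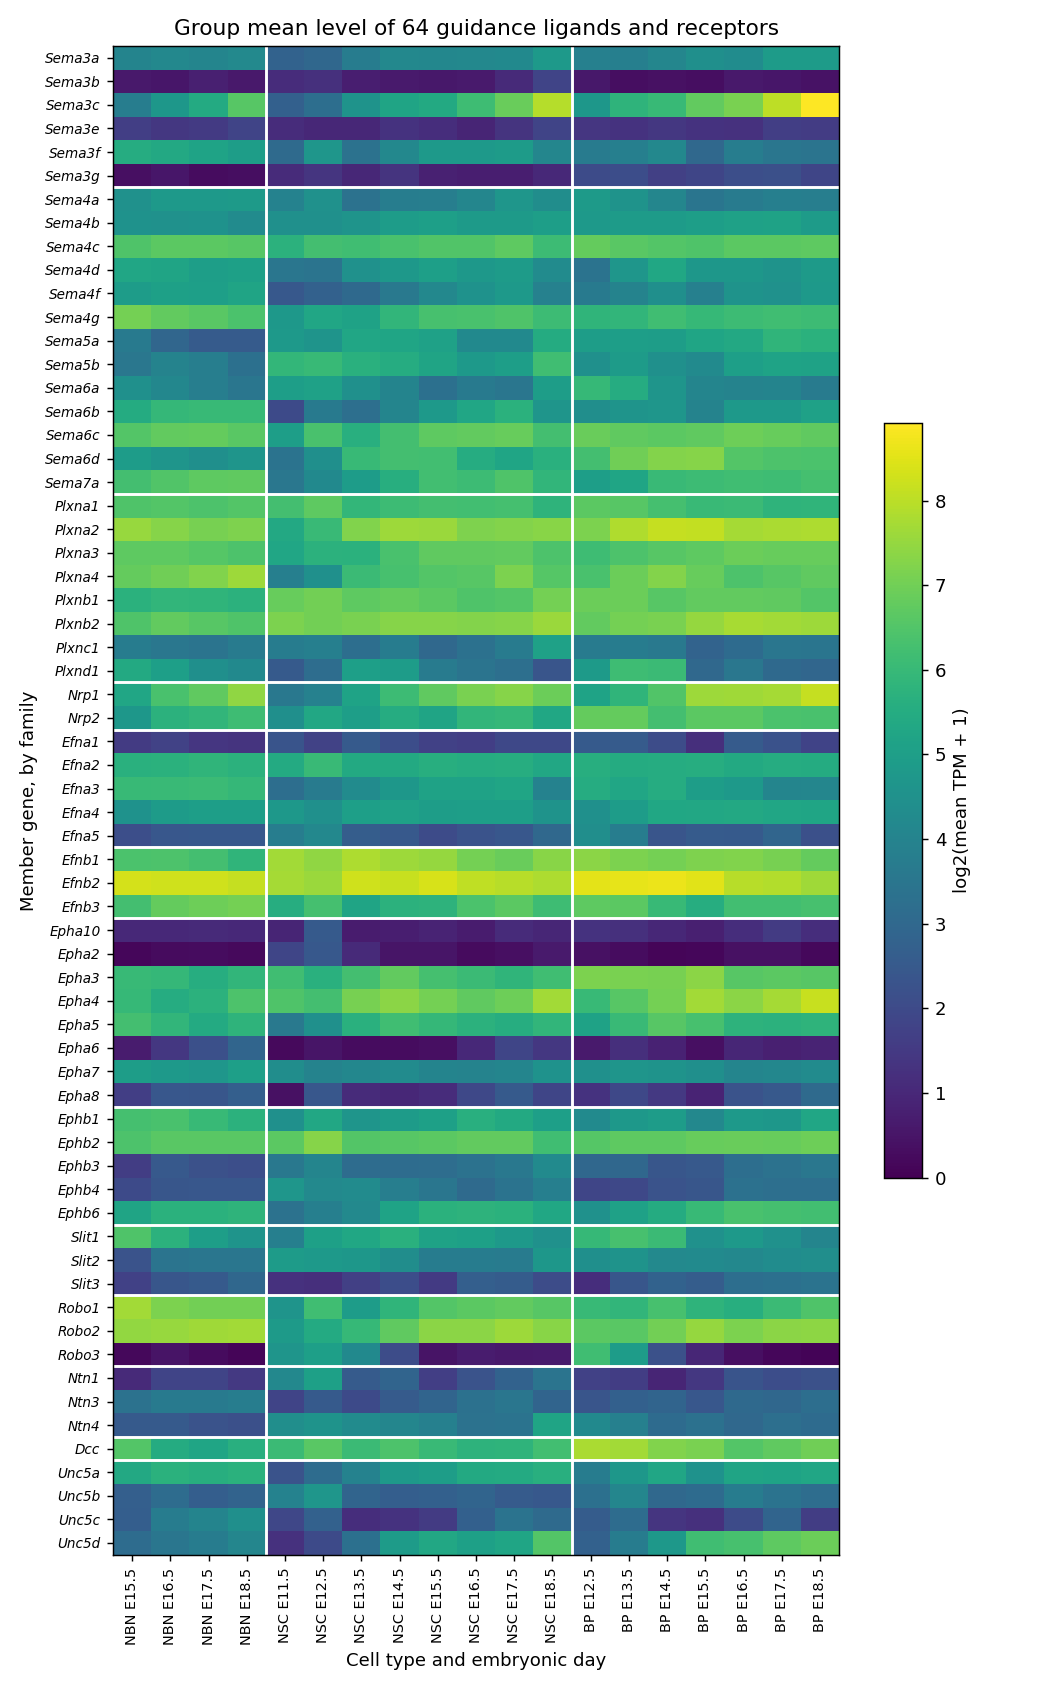
Mean level of each of the 64 members in the 19 groups, as log2(mean TPM + 1), with NBN, NSC and BP from left to right and embryonic days in order within each. Rows are grouped by family; brighter cells are higher. Robo3 is bright on the first NSC and BP days, and Sema3c, Nrp1 and Unc5d brighten with the days.

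**Figure D2:**
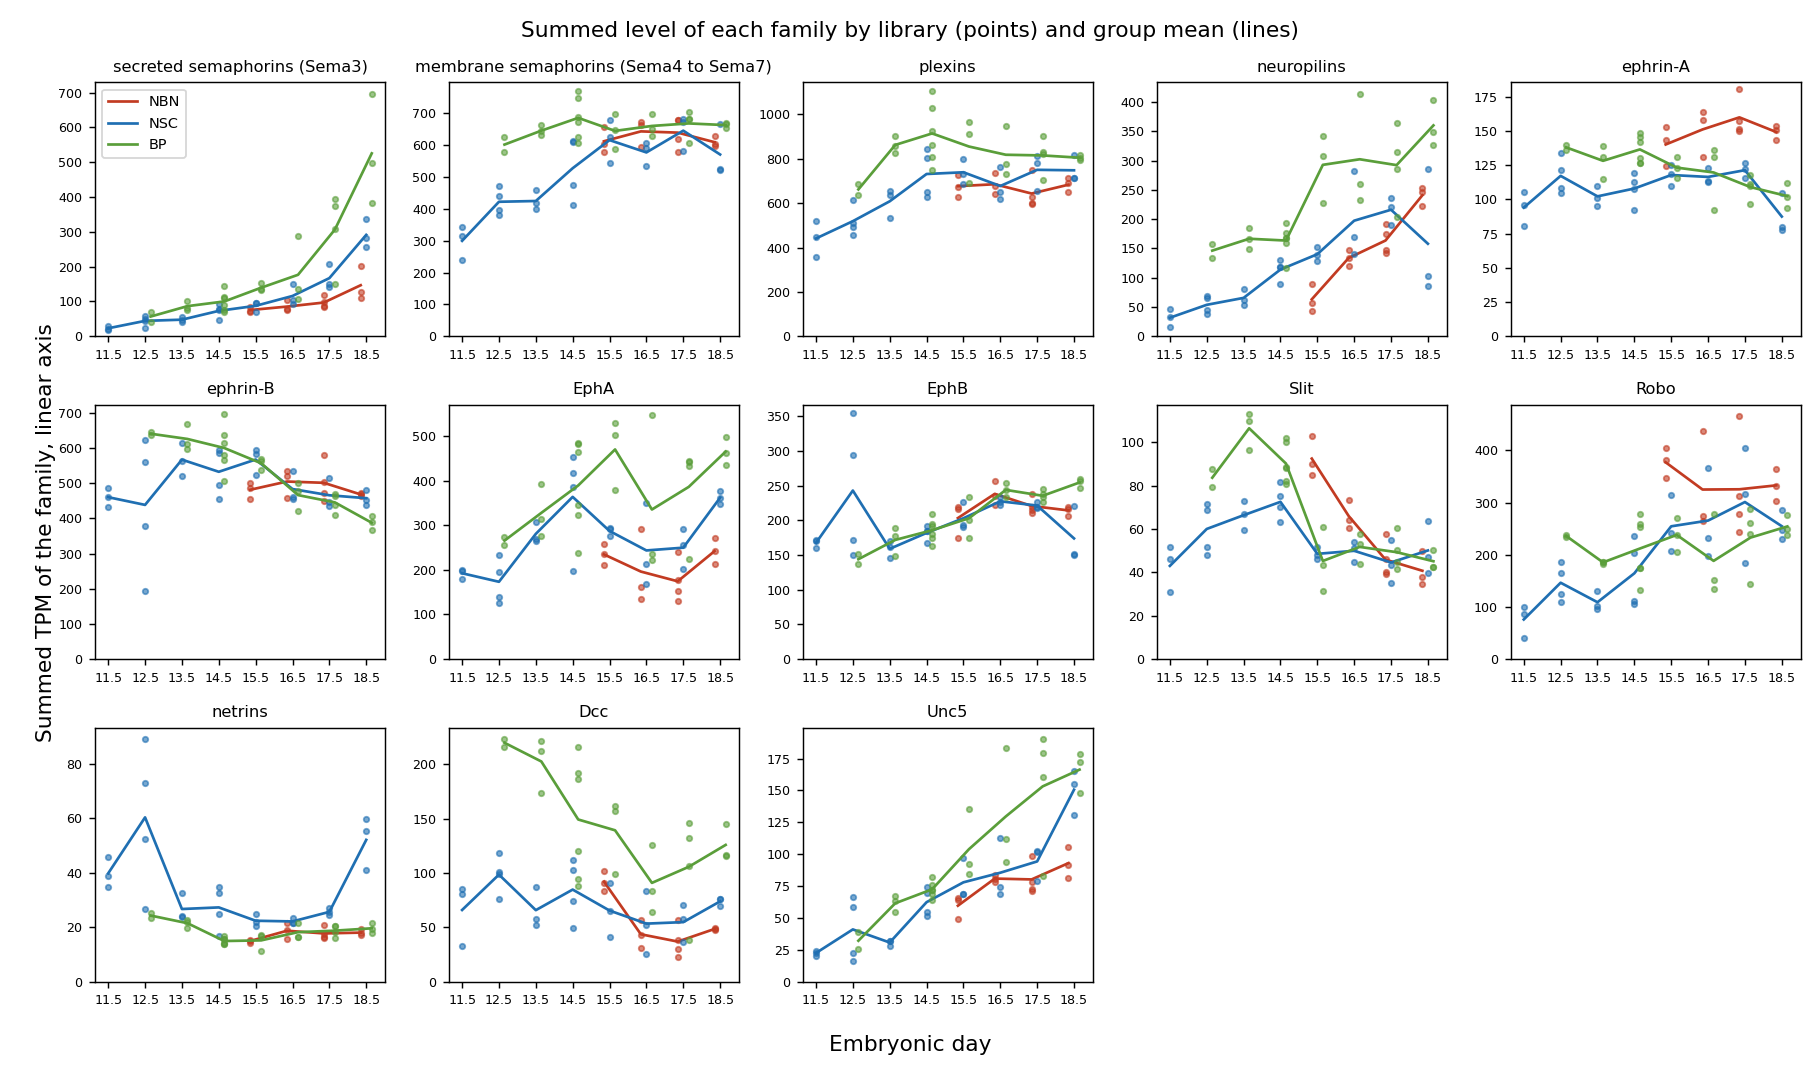
Summed TPM of each family by embryonic day, with 1 point per library and a line through the group means for NBN, NSC and BP. Secreted semaphorins average 22.7 TPM at E11.5 and 291 TPM at E18.5 in NSC, and neuropilins average 63.0 TPM at E15.5 and 241 TPM at E18.5 in NBN.

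Cell types were compared on the days they share, and days were compared by the straight-line change of log2(TPM + 1) over the sampled days, with limma. A gene was called when its Benjamini-Hochberg adjusted p, over the 15231 genes that passed the same level filter, was under 0.05 and its log2 change was at least 1. Between NBN and BP, 9 members were higher and 12 lower (32.8% of the 64, against 10.8% of all genes, of which 5.75% higher and 5.09% lower). Between NBN and NSC, 3 were higher and 9 lower (18.8%, against 8.65% of all genes, of which 2.55% higher and 6.11% lower). Between NSC and BP, 2 were higher and 4 lower (9.38%, against 3.03% of all genes, of which 2.56% higher and 0.466% lower). Over the days, 25 members rose and 6 fell in NSC (48.4%, against 23% of all genes, of which 14.8% rose and 8.17% fell). Likewise, in BP 11 rose and 10 fell (32.8%, against 11.3%, of which 6.9% rose and 4.39% fell). In NBN 7 rose and 2 fell (14.1%, against 4.74%, of which 3.3% rose and 1.44% fell). Rank orders of the shares are descriptions: the members were chosen with results of these libraries known, and all 3 day series differ in length. The comparisons between cell types share libraries, so their counts are not independent of each other.

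Medians over the members sat close to 0 in the cell type comparisons. The median log2 difference was -0.11 for members and -0.06 for all genes in NBN against BP, 0.05 and -0.06 in NBN against NSC, and -0.20 and 0.00 in NSC against BP. The median change over days was 0.54 for members and 0.09 for all genes in NSC, 0.05 and 0.09 in BP, and 0.09 and 0.04 in NBN. Under quantile scaling neither NSC member stayed called higher than in BP (0 higher, 5 lower), and over all genes the share of called genes that were higher moved to 42.3% for NBN against NSC (29.4% as deposited), to 53.2% for the NSC days (64.4%), to 50.3% for the BP days (61.1%), and to 60.5% for the difference in change over days between NBN and BP (42.6%). Median-of-ratios scaling moved the last to 56.4%.

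Fewer members were called over a shorter span. With the days limited to E15.5 to E18.5, 9 members rose and 2 fell in NSC and 4 rose and 1 fell in BP, and 3 of the 31 NSC calls and 3 of the 21 BP calls over all days were among them in the same direction. The neuron marker sum moved with the days in NSC, with group means of 1610, 2972, 2745, 3867, 4775, 5837 and 5774 TPM on the days E11.5 to E17.5 and 3224 TPM at E18.5; in BP its group means were 5543 TPM at E12.5 and 4551 TPM at E18.5. With the neuron marker level as a covariate, a setting added after the data were seen, 7 members rose in NSC over the days, 3 were higher in NBN than in BP and 0 higher in NBN than in NSC. The shares of all genes called in these settings are not given here, so the lower counts are not read as particular to the members. Whether neuron RNA in the sorts is part of any one result was not tested.

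Sema3c, a secreted class 3 semaphorin that binds neuropilins, was the member with the largest rise in NSC and in NBN over their days and had the second largest in BP. In NSC it had 3.49, 3.49 and 10.1 TPM at E11.5 and 282, 209 and 235 TPM at E18.5, a log2 change of 5.12 ± 0.33 (SE; adjusted p = 2.12e-18). In BP it had 14.9 and 35.5 TPM at E12.5 and 451, 344 and 650 TPM at E18.5 (3.90 ± 0.37, adjusted p = 3e-12), and in NBN 17.9, 13.2 and 6.85 TPM at E15.5 and 79.3, 56.8 and 151 TPM at E18.5 (2.74 ± 0.42, adjusted p = 2.04e-06). First-day and last-day libraries did not overlap in any of the cell types. Its rise was also called in NSC and in BP when only E15.5 to E18.5 were used. Sema3c was lower in NBN than in BP, with 6.85, 32.7 and 151 TPM (lowest, median and highest of 13 libraries) in NBN against 79.9, 238 and 650 TPM in BP (-2.57 ± 0.21, adjusted p = 8.65e-15), and the 2 cell types did not overlap on any of the 4 days. It was lower in NBN than in NSC (-1.50 ± 0.22, adjusted p = 7.56e-08) and lower in NSC than in BP (-1.13 ± 0.16, adjusted p = 9.16e-08; -0.91 with the neuron covariate).

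Nrp1, a neuropilin co-receptor for class 3 semaphorins, also rose over the days in all 3 cell types. In NSC it had 8.06, 10.2 and 14.3 TPM at E11.5 and 215, 79.9 and 64.2 TPM at E18.5 (3.85 ± 0.26, adjusted p = 1.64e-17). The BP values were 31.2 and 38.4 TPM at E12.5 and 280, 283 and 276 TPM at E18.5 (2.93 ± 0.30, adjusted p = 1.54e-11). In NBN it had 60.6, 30.5 and 21.8 TPM at E15.5 and 163, 160 and 191 TPM at E18.5 (2.17 ± 0.33, adjusted p = 2.25e-06). Within E15.5 to E18.5 its change was 0.05 in NSC (adjusted p = 0.919) and 0.53 in BP (adjusted p = 0.334), and neither was called. At E14.5 the BP libraries had 57.9 TPM (replicate 2) and 92.3 to 99.6 TPM (the others). From E15.5 on, no BP library had under 120 TPM. E15.5 is the first day with NBN libraries. A change in the cells and a change in which cells the BP sort held therefore cannot be told apart. The E18.5 NSC libraries differed among themselves: the one with 215 TPM of Nrp1 had a neuron marker sum of 4614 TPM and a radial glia sum of 3209 TPM, and the others had 2662 and 2394 TPM of neuron markers and 6664 and 6655 TPM of radial glia markers. Nrp1 was lower in NBN than in BP (21.8, 103 and 191 TPM against 120, 227 and 318 TPM; -1.33 ± 0.17, adjusted p = 2.82e-09).

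The promoter windows of Sema3c and Nrp1, the 2 members called higher over the days in all 3 cell types, and of Robo3, the member with the largest fall, are printed for these patterns over days. Each window runs from 250 bases before to 50 after the annotated start, from RefSeq on GRCm38.p6, 5' to 3' on the gene's strand; capitals mark the matches to the searched motifs. The windows are chr5:17574566-17574865 (+) for Sema3c, chr8:128358823-128359122 (+) for Nrp1 and chr9:37433126-37433425 (-) for Robo3.
Sema3c: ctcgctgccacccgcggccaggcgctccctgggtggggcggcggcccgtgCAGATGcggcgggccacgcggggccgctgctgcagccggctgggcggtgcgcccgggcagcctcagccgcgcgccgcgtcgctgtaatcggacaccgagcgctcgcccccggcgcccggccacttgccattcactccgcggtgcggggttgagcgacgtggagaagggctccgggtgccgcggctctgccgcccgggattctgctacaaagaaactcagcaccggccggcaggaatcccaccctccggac
Nrp1: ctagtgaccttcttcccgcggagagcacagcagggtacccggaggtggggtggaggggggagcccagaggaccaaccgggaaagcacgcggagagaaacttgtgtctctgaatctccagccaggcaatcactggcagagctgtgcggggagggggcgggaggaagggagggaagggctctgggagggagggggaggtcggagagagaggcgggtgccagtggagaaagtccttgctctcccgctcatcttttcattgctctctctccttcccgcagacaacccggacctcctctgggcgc
Robo3: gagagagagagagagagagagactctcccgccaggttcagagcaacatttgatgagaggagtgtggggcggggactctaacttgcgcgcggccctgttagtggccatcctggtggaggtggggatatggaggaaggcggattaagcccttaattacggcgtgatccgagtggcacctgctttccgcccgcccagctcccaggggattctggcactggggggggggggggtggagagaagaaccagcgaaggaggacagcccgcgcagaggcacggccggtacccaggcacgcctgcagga
The motifs searched on both strands were the E-boxes CAGATG and CAGCTG and the core TGGGAA, which do not overlap one another in these windows. Sema3c held 1 CAGATG, 200 bases before its start, and Nrp1 and Robo3 held none of the 3 motifs. The 54 members with a window had 70 windows in all. CAGATG was in 4 of these (5.71%) and in 17.2% of all 32851 windows, CAGCTG in 9 (12.9%) and in 16.3%, and TGGGAA in 16 (22.9%) and in 25.6%. The match is a description of these letters only. Another 10 members, Unc5d and Slit1 among them, had no window.

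**Figure D3:**
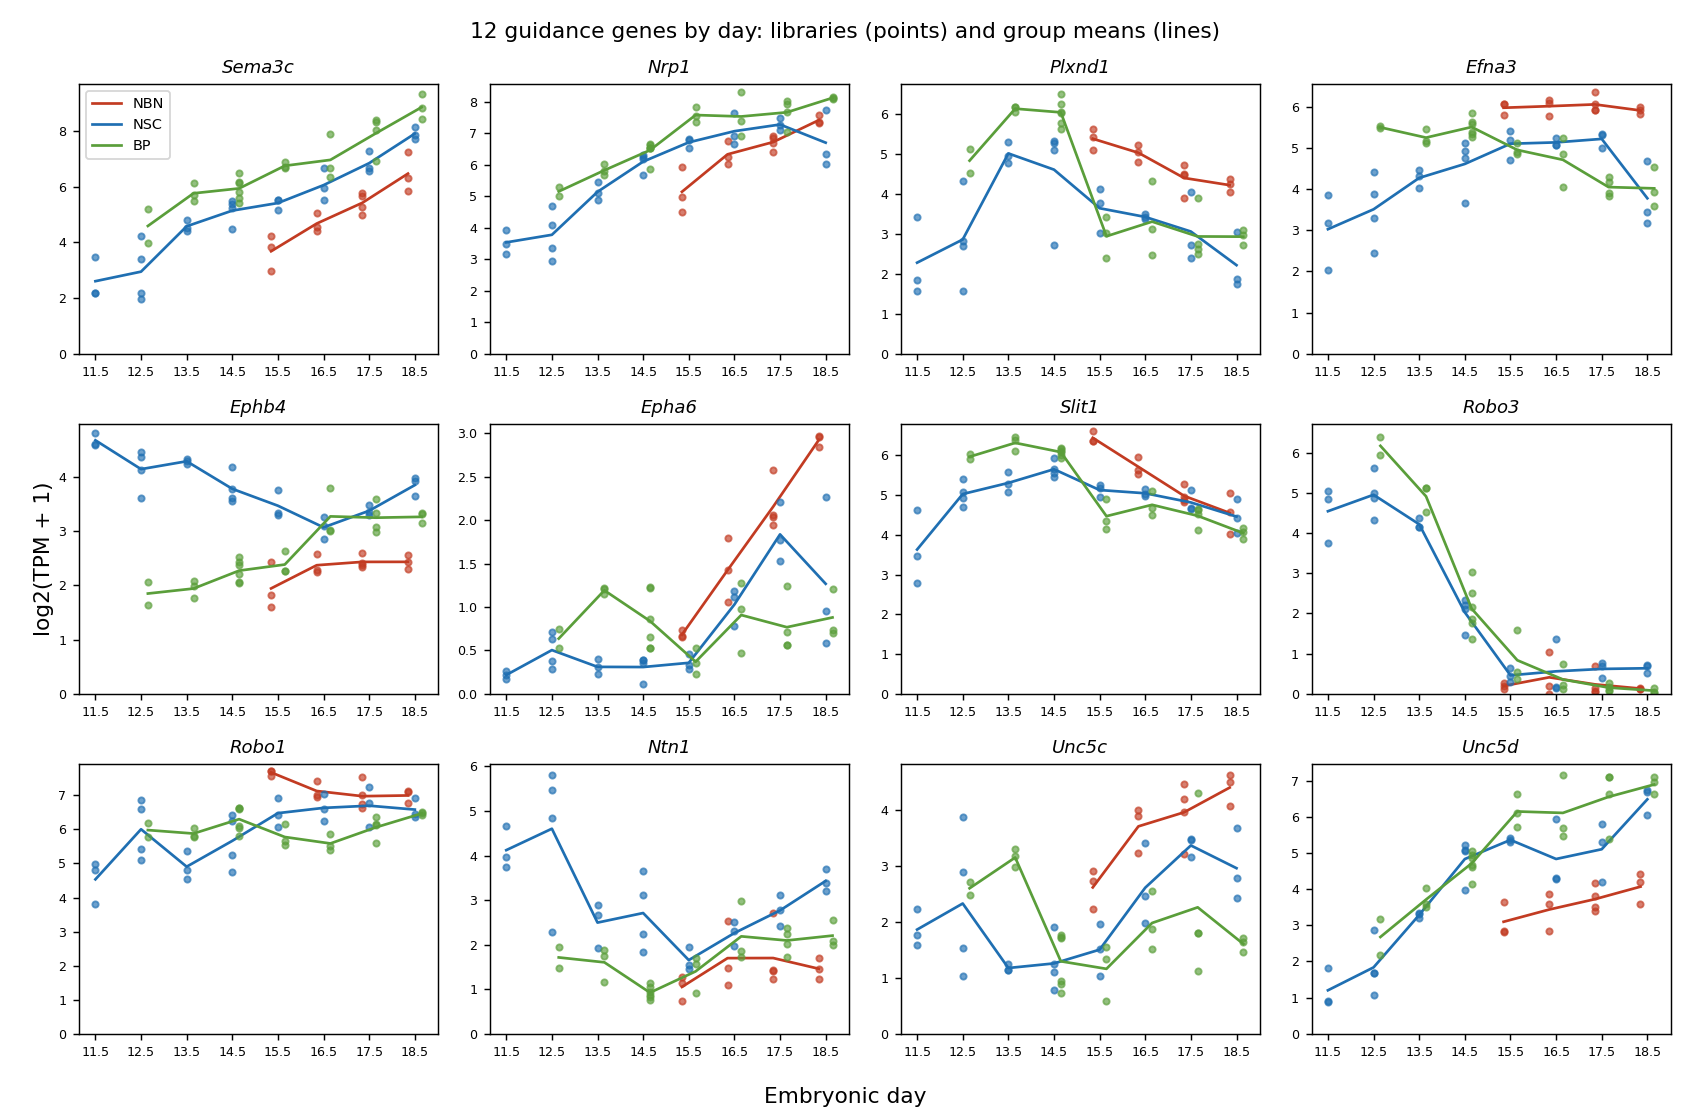
Level by embryonic day for 12 members, as log2(TPM + 1), with 1 point per library and a line through group means for NBN, NSC and BP. Robo3 falls by E15.5 in NSC and in BP, and Plxnd1 and Slit1 in BP step down between E14.5 and E15.5.

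The class 3 ligand Sema3f ran the other way between cell types. It had 28.7, 38.7 and 45.9 TPM in NBN against 5.63, 9.96 and 16.2 TPM in BP, with no overlap (1.84 ± 0.15, adjusted p = 7.13e-15). Sema6b, a transmembrane semaphorin that binds Plxna4, had 40.7, 59.6 and 68.2 TPM in NBN against 13.8, 27.8 and 36.2 TPM in BP, again with no overlap (1.18 ± 0.16, adjusted p = 1.07e-08); with the neuron covariate the difference was 0.39 (adjusted p = 0.119). The transmembrane semaphorins Sema5a, Sema5b and Sema6d were lower in NBN than in BP. Sema5a had 3.34, 6.1 and 16.7 TPM in NBN against 21.4, 45.8 and 72 TPM in BP (-2.59 ± 0.20, adjusted p = 1e-15), and against 10.8, 26.6 and 52 TPM in NSC (-1.82 ± 0.20, adjusted p = 1.57e-10). Sema5b had 7.94, 10.4 and 20.6 TPM in NBN, against 15.8, 33.3 and 36.4 TPM in BP (-1.27 ± 0.09, adjusted p = 2.09e-16) and 21.4, 32.8 and 83.8 TPM in NSC (-1.65 ± 0.10, adjusted p = 7.69e-20). Sema5b in NBN and NSC did not overlap, while in NBN and BP the ranges over all 4 days did. Sema6d, which binds A-type plexins, had 13.9, 25.8 and 35.9 TPM in NBN against 67.9, 85.2 and 170 TPM in BP, with no overlap (-1.99 ± 0.19, adjusted p = 5.04e-13). It was also lower in NSC (8.64, 49.9 and 97.1 TPM over 7 days) than in BP (64.4, 106 and 207 TPM), without overlap on any of the 7 days (-1.15 ± 0.14, adjusted p = 2.56e-09; -0.87 with the neuron covariate). Of the other semaphorins and plexins, Sema4a was called higher in NBN than in BP, and Sema3g and Plxnb2 lower.

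Plxnd1, the plexin that binds Sema3e, changed in steps. In BP it had 91.1, 65.2, 48.3, 54.4, 75.7 and 65.8 TPM at E14.5 and 4.25, 7.1 and 9.67 TPM at E15.5, and the change over all BP days was -3.19 ± 0.44 (adjusted p = 4.16e-08). Within E15.5 to E18.5 the BP change was -0.12 (adjusted p = 0.89). E15.5 is the first day with NBN libraries, where Plxnd1 had 33.5, 48.8 and 41.9 TPM, so a change in the cells and a change in which cells the BP sort held cannot be told apart. Over E15.5 to E18.5 Plxnd1 was higher in NBN (13.9, 25.8 and 48.8 TPM) than in BP (4.25, 6.89 and 19.2 TPM; 1.73 ± 0.25, adjusted p = 5.16e-08) and than in NSC (2.33, 8.28 and 16.52 TPM; 1.68 ± 0.26, adjusted p = 2.14e-07), and with the neuron covariate the difference was 0.55 from BP (adjusted p = 0.174) and 0.77 from NSC. From E15.5 on, the highest BP libraries were replicate 2 of E16.5 (19.2 TPM) and replicate 3 of E17.5 (13.8 TPM), whose endothelium and pericyte marker sums were 121 and 137 TPM, the highest of all 63 libraries; Plxnd1 is also known from endothelium, and the part of these cells was not tested.

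Nrp2, the neuropilin that binds Sema3f, was lower in NSC (21.4, 39.9 and 85.2 TPM) than in BP (51.8, 89.2 and 135.4 TPM; -1.14 ± 0.13, adjusted p = 2.23e-10), with overlapping ranges. The difference was -0.99 within E15.5 to E18.5 and -0.93 with the neuron covariate. In NBN it had 28.1, 26.3 and 22 TPM at E15.5 and 59.8, 87.3 and 62 TPM at E18.5 (1.31 ± 0.33, adjusted p = 0.00326). Over the NSC days, the A-type plexin Plxna4 (2.13, 10.3 and 27.6 TPM at E11.5, 121, 83.6 and 75.9 TPM at E18.5) rose by 3.22 ± 0.32 (adjusted p = 1.66e-12). The GPI-anchored ligand Sema7a (5.92, 10.1 and 15.4 TPM, then 77.1, 49 and 48.1 TPM) rose by 2.71 ± 0.16 (adjusted p = 2.17e-19), and Sema6b (0.791, 3.58 and 4.66 TPM, then 41.3, 15.3 and 15 TPM) rose by 3.00 ± 0.25 (adjusted p = 8.13e-15). Sema6b and Sema7a did not rise within E15.5 to E18.5, where they changed by -0.11 and -0.22 in NSC. The Plxna4 change within these days kept its direction, and its value is not given here. With the neuron covariate the Plxna4 change was 0.53 (adjusted p = 0.167), while those of Sema7a (1.85) and Sema6b (1.52) stayed called. In BP, Sema6a, a transmembrane ligand of A-type plexins, had 61.3 and 63.5 TPM at E12.5 and 10.9, 14.6 and 10.3 TPM at E18.5 (-2.29 ± 0.28, adjusted p = 3.84e-09; -0.30 within E15.5 to E18.5, adjusted p = 0.604). Sema6a also fell in NBN (-1.03 ± 0.32, adjusted p = 0.0184), a call lost without E15.5 replicate 2 (-1.02), E17.5 replicate 2 (-0.97) or 3 (-0.996), or E18.5 replicate 3 (-0.85), or without all of E18.5 (-0.75), and Sema4a, a transmembrane ligand of B-type plexins, fell in BP (-1.07 ± 0.21, adjusted p = 4.65e-05), though within E15.5 to E18.5 it changed by 0.37. Of the other semaphorins and receptors that were called over days, Sema3a, Sema3f, Sema4d, Sema4f, Sema4g, Sema6c, Sema6d, Plxna2 and Plxna3 rose in NSC, and Sema3a and Sema7a rose in BP.

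Among the ephrins and their receptors, the GPI-anchored ligand Efna3 and the receptor Ephb1 were higher in NBN. Efna3 had 54.8, 63.6 and 81.4 TPM in NBN, against 11.2, 18.6 and 37.2 TPM in BP (1.56 ± 0.17, adjusted p = 4.53e-11) and 8.13, 33.2 and 41.9 TPM in NSC (1.19 ± 0.17, adjusted p = 1.07e-07). Ephb1, a receptor for ephrin-B, had 45.5, 65.3 and 95.3 TPM in NBN against 12.9, 25.9 and 40.3 TPM in BP (1.36 ± 0.14, adjusted p = 4.36e-12). None of these 3 pairs overlapped in any library. With the neuron covariate the Efna3 difference was 0.71 from BP and 0.53 from NSC, under the limit of 1, and without E18.5 it was 0.87 from NSC. Epha4, a receptor that binds ephrins of both classes, was lower in NBN (36.3, 58.2 and 104 TPM) than in BP (119, 236 and 311 TPM, no overlap; -1.80 ± 0.13, adjusted p = 1.21e-16) and than in NSC (79.9, 139 and 218 TPM; -1.19 ± 0.13, adjusted p = 1.4e-10). Ephb3, an ephrin-B receptor, had 1.62, 3.58 and 5.74 TPM in NBN against 6.74, 9.95 and 20 TPM in NSC, with no overlap (-1.48 ± 0.10, adjusted p = 1.24e-17; -0.95 with a pseudocount of 5), and was called lower in NBN than in BP as well.

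Ephb4, the receptor for Efnb2 best known from veins, had opposite day courses in NSC and in BP. In NSC it had 23.5, 27.3 and 23.2 TPM at E11.5 and 11.5, 14.2 and 14.8 TPM at E18.5 (-1.13 ± 0.15, adjusted p = 5.15e-09), although its NSC change was 0.44 within E15.5 to E18.5, -0.90 with a pseudocount of 5 and -0.71 with the neuron covariate. The BP libraries had 2.12 and 3.15 TPM at E12.5 and 9.08, 8.95 and 7.85 TPM at E18.5 (1.69 ± 0.17, adjusted p = 1.14e-11), and within E15.5 to E18.5 its BP change was 0.79. Over the days they share, the NSC change minus the BP change was -2.42 ± 0.23 (adjusted p = 3.39e-11), and within E15.5 to E18.5 it was -0.35 (adjusted p = 0.542). Ephb4 was higher in NSC (6.26, 11.5 and 21.1 TPM) than in BP (2.12, 4.55 and 12.9 TPM; 1.11 ± 0.07, adjusted p = 7.95e-18) and lower in NBN (2.02, 4.16 and 5.09 TPM) than in NSC (-1.15 ± 0.10, adjusted p = 4.04e-14; -0.95 under quantile scaling and -0.74 with a pseudocount of 5). The excess in NSC fell under the limit of 1 under quantile scaling (0.99), with a pseudocount of 5 (0.74), without the E12.5 NSC libraries (0.91) and within E15.5 to E18.5 (0.40). The 2 BP libraries with high endothelium and pericyte marker sums, named above for Plxnd1, had 12.9 and 11.1 TPM of Ephb4.

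In BP, Epha4 had 54.7 and 72.9 TPM at E12.5 and 273, 277 and 311 TPM at E18.5 (1.92 ± 0.23, adjusted p = 1.54e-09). The kinase-inactive receptor Ephb6 had 18.2 and 25.2 TPM at E12.5 and 74.1, 74.7 and 72.4 TPM at E18.5 (1.81 ± 0.13, adjusted p = 7.55e-16). Epha8, an ephrin-A receptor, rose by 1.53 ± 0.33 (adjusted p = 0.00016), with 1.70 and 1.23 TPM at E12.5, 0.927, 0.516 and 1.07 TPM at E15.5 and 6.94, 7.48 and 8.01 TPM at E18.5. Its rise was also called within E15.5 to E18.5, where those of Epha4 (0.59) and Ephb6 (0.18) were not, but over all days it was 0.87 without E18.5 and 0.81 with a pseudocount of 5. The ephrin-A ligands Efna3 (-1.64 ± 0.30, adjusted p = 1.14e-05) and Efna5 (-1.75 ± 0.29, adjusted p = 2.07e-06) fell in BP. The BP values of Efna5 were 17.48 and 22.5 TPM at E12.5 and 3.21, 4.78 and 2.61 TPM at E18.5, and its change within E15.5 to E18.5 was -0.24 (adjusted p = 0.632). It also fell in NSC (-1.31 ± 0.26, adjusted p = 1.69e-05; -0.91 with a pseudocount of 5), but within E15.5 to E18.5 its NSC change was 0.96, and without the E12.5 NSC libraries it was -0.80. Epha6, another ephrin-A receptor, stayed under 1 TPM at E15.5 in NBN (0.579, 0.661 and 0.568 TPM) and had 6.79, 6.18 and 6.82 TPM at E18.5 (2.24 ± 0.23, adjusted p = 3.44e-10). It was higher in NBN than in BP (0.568, 2.86 and 6.82 TPM against 0.169, 0.624 and 1.41 TPM; 1.07 ± 0.12, adjusted p = 5.96e-11). That excess was 0.61 with the neuron covariate and 0.46 with a pseudocount of 5, and 0.74 without E18.5, all under the limit. In NSC, Ephb6, Epha5, Epha6, Epha8 and Efna3 also rose over all days and Epha2 fell, and in BP Efnb2 fell.

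**Figure D4:**
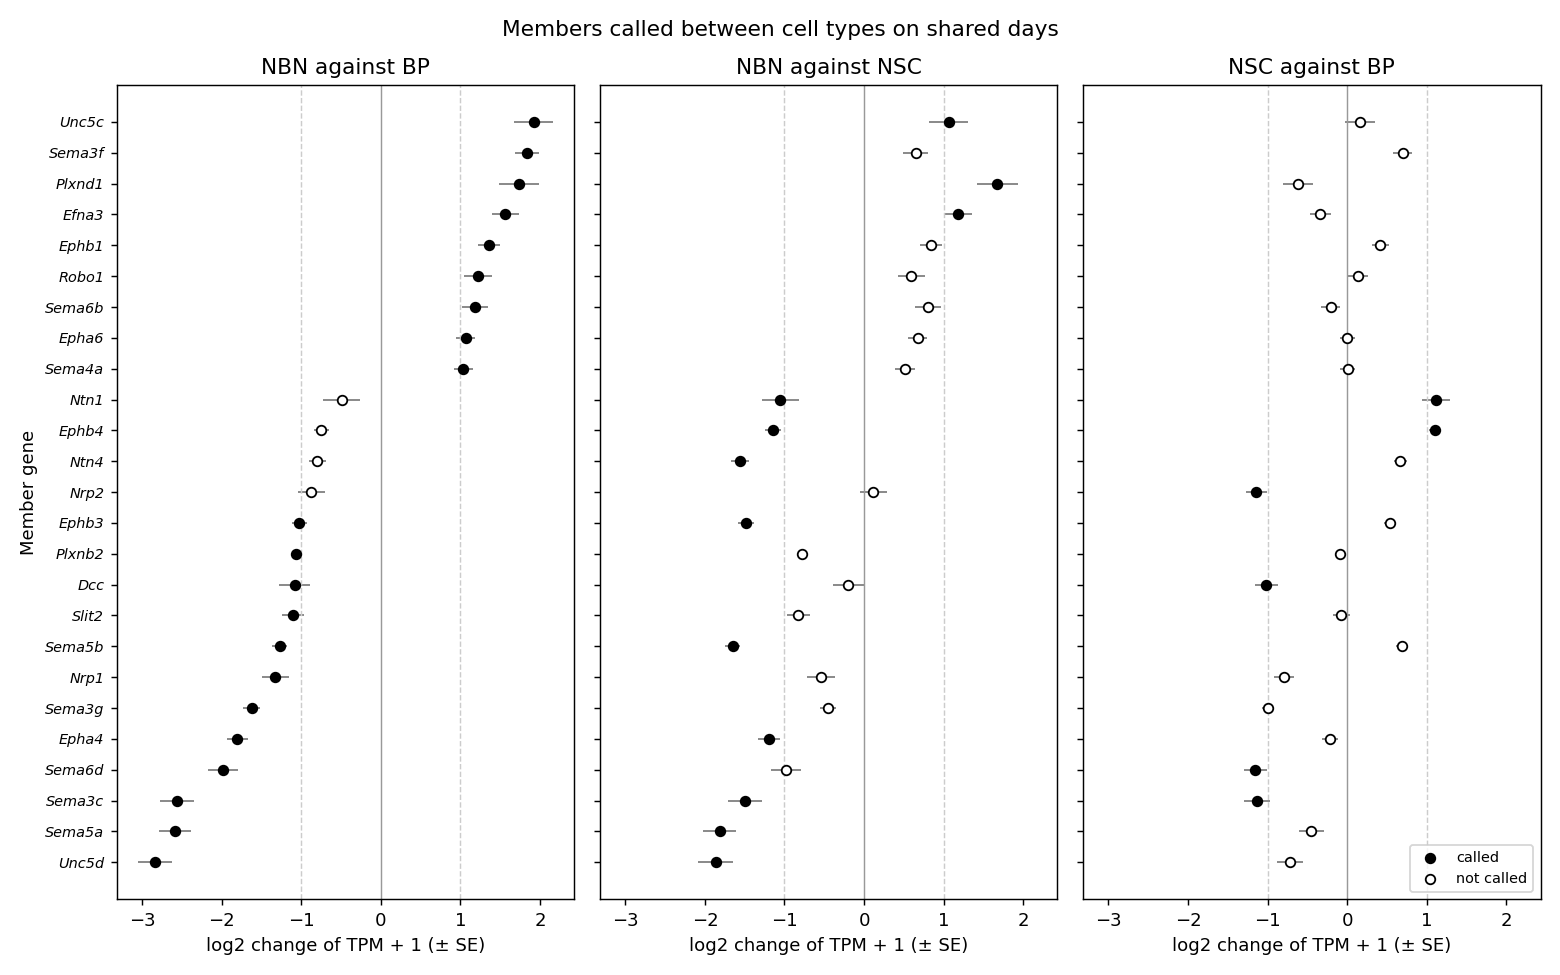
Log2 change with its SE in NBN against BP, NBN against NSC and NSC against BP, on 1 shared axis, for the 25 members called in at least 1 of them; filled points are called, open points are not, with dashed lines at the limits of -1 and 1. Unc5d, Sema5a and Sema3c lie lowest in NBN against BP, and Unc5c and Sema3f highest.

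Robo3, the divergent Robo receptor known in mouse from commissural axons that cross the midline, had the largest fall over the days. In BP it had 83.4 and 60.5 TPM at E12.5, 2.66, 2.39, 1.56, 3.48, 7.2 and 4.72 TPM at E14.5 and 0.0365, 0.108 and 0.0186 TPM at E18.5 (-6.34 ± 0.28, adjusted p = 1.07e-23). In NSC it had 12.4, 27.6 and 32 TPM at E11.5, 3.6, 1.73, 4.06 and 3.32 TPM at E14.5 and 0.612, 0.63 and 0.42 TPM at E18.5 (-5.13 ± 0.25, adjusted p = 6.46e-23). The highest NSC library was one of E12.5, with 48.1 TPM, and by E15.5 no NSC library exceeded 1.59 TPM; within E15.5 to E18.5 the NSC change was 0.18 and the BP change -0.74, and neither was called. In NBN, Robo3 ran to 1.05 TPM at most and was listed at 0 in the lowest library. The fall in NSC and BP was also called with the neuron covariate (-5.60 and -6.23).

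The Slit receptors Robo1 and Robo2 were among the most abundant members in neurons. Robo1 had 97.3, 134.8 and 210 TPM in NBN against 41, 68.7 and 90 TPM in BP, with no overlap (1.22 ± 0.17, adjusted p = 3.03e-08), and the difference was 0.36 with the neuron covariate (adjusted p = 0.181). Robo2 rose in NSC (14.49, 32.4 and 37.9 TPM at E11.5, 167, 160 and 148 TPM at E18.5; 2.80 ± 0.26, adjusted p = 3.63e-13), but by 0.03 within E15.5 to E18.5 and by 0.88 with the neuron covariate. Robo1 rose there as well. Of the ligands, Slit1 fell in BP and in NBN. In BP it had 71, 67.8, 60.2, 67.1, 72.1 and 63.9 TPM at E14.5, 19.4, 16.9 and 28.9 TPM at E15.5 and 15.8, 17 and 13.8 TPM at E18.5 (-2.31 ± 0.21 over all days, adjusted p = 1.12e-12). In NBN it had 81.1, 96.5 and 81.6 TPM at E15.5 and 22.9, 32.3 and 15.3 TPM at E18.5 (-1.92 ± 0.24, adjusted p = 3.01e-08). The BP values thus step down on the day on which NBN libraries begin, as for Plxnd1, and the BP change within E15.5 to E18.5 was -0.47 (adjusted p = 0.142). Slit2 was lower in NBN (2.44, 8.45 and 14.49 TPM) than in BP (11.9, 18.9 and 26.2 TPM; -1.11 ± 0.14, adjusted p = 1.75e-09; -0.82 with a pseudocount of 5) and rose in NBN over the days (1.16 ± 0.27, adjusted p = 0.00147; 0.96 without replicate 3 of E15.5 and 0.74 with a pseudocount of 5). Slit3 rose in BP (1.88 ± 0.37, adjusted p = 3.93e-05; 0.74 within E15.5 to E18.5, adjusted p = 0.363) and in NBN (1.28 ± 0.41, adjusted p = 0.0245). The NBN call was lost without replicate 3 of E15.5 (0.91), replicate 2 of E18.5 (1.20) or replicate 3 of E18.5 (1.29), without all of E18.5 (0.90), or with a pseudocount of 5 (0.68). Its E18.5 NSC libraries had 8.81, 0.328 and 0.334 TPM, the highest being the one with more neuron and less radial glia marker RNA.

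Unc5d, a repulsive netrin receptor known in the mouse cortex from the subventricular zone, was the member furthest below BP in NBN. It had 6.06, 11.1 and 20.4 TPM in NBN, against 40.5, 98.5 and 141 TPM in BP, with no overlap (-2.84 ± 0.21, adjusted p = 3.35e-16), and 17.3, 41 and 105 TPM in NSC (-1.86 ± 0.22, adjusted p = 4.22e-10). Over the days it rose in NSC (0.838, 0.871 and 2.56 TPM at E11.5, 64.8, 101 and 105 TPM at E18.5; 4.87 ± 0.33, adjusted p = 1.47e-17) and in BP (3.55 and 8 TPM at E12.5, 124, 97 and 135.1 TPM at E18.5; 4.22 ± 0.37, adjusted p = 2.85e-13). Unc5c, another Unc5 receptor, ran the other way between cell types, with 3.68, 14.6 and 23.7 TPM in NBN, against 0.503, 2.14 and 18.9 TPM in BP (1.92 ± 0.25, adjusted p = 2.87e-09) and 1.06, 5.21 and 11.8 TPM in NSC (1.06 ± 0.25, adjusted p = 0.000322; 0.98 without NSC E16.5 replicate 2, 0.99 without NSC E18.5 replicate 3 and 0.93 without E18.5). That difference from NSC was 0.43 with the neuron covariate (adjusted p = 0.282) and 0.71 with a pseudocount of 5. The highest BP value, 18.9 TPM, was 1 E17.5 library whose group otherwise lay between 1.18 and 2.51 TPM. Unc5c rose in NBN over the days (1.68 ± 0.48, adjusted p = 0.0102), a call lost without replicate 2 of E15.5 (1.51, adjusted p = 0.0577) or without E18.5 (1.34, adjusted p = 0.081). Unc5a rose in NSC (2.19, 3.17 and 6.19 TPM at E11.5, 50.4, 43.6 and 51.1 TPM at E18.5; 3.38 ± 0.20, adjusted p = 7.98e-20), and Unc5b fell there (15.6, 16.2 and 12.1 TPM, then 4.17, 4.66 and 4.56 TPM; -1.60 ± 0.24, adjusted p = 7.49e-08). Within E15.5 to E18.5 the NSC change was 1.09 for Unc5d (adjusted p = 0.0609), 0.67 for Unc5a and -0.33 for Unc5b (adjusted p = 0.193). The BP change of Unc5d was 0.80 (adjusted p = 0.244), and none of these was called. Unc5c also rose in NSC, and Unc5a in BP.

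Dcc, the attractive netrin receptor, was lower in NSC (25.5, 74.7 and 119 TPM) than in BP (38.1, 139 and 223 TPM; -1.02 ± 0.15, adjusted p = 8.09e-08), a difference at the limit. It dropped under it when any 1 of 8 libraries was left out (NSC E13.5 replicate 3, E14.5 replicate 2, E15.5 replicate 2, E16.5 replicate 3 or E17.5 replicate 1, or BP E16.5 replicate 1 or E17.5 replicate 1 or 4; -0.997 to -0.954), with the replicate number as a block (-0.98), with a pseudocount of 5 (-0.98), without the E12.5 NSC libraries (-0.99), within E15.5 to E18.5 (-0.88) and with the neuron covariate (-0.80). In BP it had 223 and 216 TPM at E12.5 and 117, 144.7 and 116 TPM at E18.5 (-1.13 ± 0.33, adjusted p = 0.00488). That fall was -0.95 without replicate 2 of E17.5, -0.08 within E15.5 to E18.5 (adjusted p = 0.93) and -0.76 with the neuron covariate. Dcc was also called lower in NBN than in BP. The secreted ligand Ntn1 was higher in NSC (1.76, 5.38 and 54.7 TPM) than in BP (0.681, 2.31 and 6.89 TPM; 1.11 ± 0.18, adjusted p = 8.17e-07). The NSC libraries of E12.5 had 54.7, 43.3, 3.89 and 27.7 TPM, and 3 of these were the highest of all. Their interneuron marker sums, in the same order, were 371, 918, 176 and 536 TPM. Without these libraries the difference was 0.82, under the limit, and whether cells of the interneuron lineage are part of it was not tested. Ntn1 fell in NSC over the days (-1.31 ± 0.36, adjusted p = 0.00138), but within E15.5 to E18.5 its NSC change was 1.75 (adjusted p = 0.000178), and without the E12.5 NSC libraries it was -0.67 (adjusted p = 0.0545). Ntn4, a laminin-related netrin, had 2.76, 4.39 and 5.11 TPM in NBN against 6.33, 11.2 and 46.9 TPM in NSC, with no overlap (-1.56 ± 0.11, adjusted p = 5.85e-17). Ntn1 was also called lower in NBN than in NSC; over the days Ntn4 fell in BP and Ntn3 rose in NSC.

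The change over days was then tested for a difference between cell types. Between NSC and BP, 16 members had a higher slope in NSC and 7 a lower one (35.9% of the 64, against 10.5% of all genes, of which 6.86% higher and 3.66% lower; median difference 0.46 for members and 0.00 for all genes). The largest differences upward were Unc5c (2.51 ± 0.58, adjusted p = 0.000826), Efna3 (2.34 ± 0.40, adjusted p = 1.85e-05) and Plxna4 (2.07 ± 0.48, adjusted p = 0.000858). Sema6a (1.72 ± 0.38), Robo3 (1.70 ± 0.38), Sema4a (1.69 ± 0.29), Plxnd1 (1.68 ± 0.59, adjusted p = 0.0265) and Slit1 (1.603 ± 0.29) followed. Downward, Ephb4 was followed by Ntn1 (-1.53 ± 0.55, adjusted p = 0.03), Slit3 (-1.31 ± 0.50, adjusted p = 0.0415), Epha4 (-1.13 ± 0.31, adjusted p = 0.00447), Unc5b (-1.10 ± 0.36, adjusted p = 0.0174) and Sema5b (-1.01 ± 0.22, adjusted p = 0.000499). For Plxnd1, Slit1 and Efna3, the BP side of the difference includes the step between E14.5 and E15.5, and within E15.5 to E18.5 the differences were -1.28, -0.20 and -0.13. With the neuron covariate 1 member had a higher slope and 3 a lower one in NSC, and the share of all genes called there is not given. Without the E12.5 NSC libraries the Ntn1 difference was -0.26, that of Unc5b 0.03, and those of Plxna4 (1.16), Plxnd1 (0.88), Sema5b (-0.52) and Slit3 (-0.83) were no longer called. Without E18.5, those of Sema6a (0.58) and Slit3 (-0.60) were not. Leaving out single libraries ended some calls. That of Ntn1 was lost without NSC E12.5 replicate 1 or 2, BP E12.5 replicate 1 or BP E18.5 replicate 2 (-1.41 to -1.27). That of Plxnd1 was lost without NSC E12.5, E17.5 or E18.5 replicate 1 or BP E12.5 replicate 2 (1.40 to 1.48). That of Unc5b was lost without NSC E12.5 replicate 1 or 2, BP E12.5 replicate 1 or BP E13.5 replicate 1 (-0.99 to -0.80). The Slit3 call was lost without any 1 of 11 libraries (-1.29 to -0.999; NSC E12.5 and E13.5 replicate 1, E16.5 and E17.5 replicate 3 and E18.5 replicates 2 and 3, and BP E12.5 replicate 1, E13.5 replicates 1 and 3, E17.5 replicate 4 and E18.5 replicate 2). The Sema5b value, at the limit, fell short of it without any 1 of 16 libraries, 9 of NSC and 7 of BP (-0.9995 to -0.884).

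Between NBN and BP, 3 members had a higher slope in NBN and 3 a lower one over the 4 shared days (9.38%, against 2.4% of all genes, of which 1.02% higher and 1.38% lower; median difference -0.09 for members and -0.12 for all genes). These were Epha6 (1.82 ± 0.33, adjusted p = 0.000207) and both neuropilins, Nrp2 (1.70 ± 0.47, adjusted p = 0.0256) and Nrp1 (1.64 ± 0.47, adjusted p = 0.0359), upward, and Ephb1 (-1.64 ± 0.38, adjusted p = 0.00547), Slit1 (-1.45 ± 0.34, adjusted p = 0.00559) and Sema5b (-1.12 ± 0.26, adjusted p = 0.0058) downward. The Nrp1 call was lost without any 1 of 10 libraries (1.35 to 1.68; BP E15.5 replicates 1 and 3, BP E18.5 replicates 1, 2 and 3, NBN E15.5 replicates 2 and 3, and NBN E18.5 replicates 1, 2 and 3). That of Nrp2 was lost without any 1 of 6 (1.46 to 1.64; BP E15.5 replicates 1 and 3, BP E18.5 replicates 1 and 3, NBN E15.5 replicate 3 and NBN E18.5 replicate 2), and Sema5b was at -0.99 without NBN E15.5 replicate 3 and at -0.99 and -0.97 under quantile and median-of-ratios scaling. Without E18.5 the differences of Nrp1 (1.495), Nrp2 (1.37), Ephb1 (-0.89) and Sema5b (-0.66) were not called. Nrp1 and Nrp2 rose in NBN, and their BP libraries ran from 120 to 318 and from 51.8 to 122 TPM on these days. The Nrp2 difference was larger than its rise in NBN, so it also holds a fall in BP. That of Nrp1 was smaller than its rise in NBN. Slit1 fell in NBN after E15.5, where BP had already stepped down.

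Genes that act with these families were counted from lists of signal transducers, co-receptors and other guidance cues. Of 44 tested transducers, 7 were higher and 2 lower in NBN than in BP (the background is 10.8% of all genes). Rnd2 is a small GTPase that binds plexins and acts in the radial migration of cortical neurons. It had 71.9 ± 17.3 TPM in NBN against 675 ± 147 TPM in BP, with a log2 change of -3.29 ± 0.15. Here the SD of the TPM values is over the group means of the shared days, not over libraries. Rnd2 was also lower in NSC than in BP (-1.04 ± 0.11, adjusted p = 7.2e-11), the 1 transducer called there. The actin-binding protein Ablim1 (2.90 ± 0.14) and Trim67 (2.59 ± 0.19), a ubiquitin ligase that binds Dcc, were higher in NBN than in BP. Over the days 13 transducers rose and 2 fell in NSC (23% of all genes called), led by Trim67 (3.90), Trim9 (2.83) and Mical2 (2.81). In BP 3 rose and 2 fell, a share near the 11.3% of all genes called, and in NBN 2 rose and 1 fell (4.74% of all genes called); Mical2, an oxidase of actin of the family that acts under plexins, rose by 2.31 in BP and 1.77 in NBN.

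Of 20 co-receptors, 3 were higher and 3 lower in NBN than in BP (10.8% of all genes called). Cntn1, an adhesion protein of axons, was higher (2.82 ± 0.19), and Flrt1 (-1.25) and Dscaml1 (-1.20) were lower. Over the days 10 rose and 3 fell in NSC (23% of all genes called), with Chl1, an adhesion protein that associates with neuropilins, rising by 4.83 ± 0.38, and 6 rose and 2 fell in BP (11.3% of all genes called), where Chl1 rose by 2.68 and Nrcam fell by 2.43. In NBN the 1 co-receptor called was Met, a receptor tyrosine kinase, which rose by 3.23 ± 0.36 (4.74% of all genes called, a share near that of this list). Of 23 other cues, 2 were higher and 5 lower in NBN than in BP (10.8% of all genes called), 1 higher and 7 lower in NBN than in NSC (8.65%), and 4 higher and 1 lower in NSC than in BP (3.03%). The matrix proteins Tnc (2.60) and Bcan (1.62) were higher in NSC than in BP and lower in NBN than in NSC (-2.77 and -2.83), and Tnc rose by 8.26 ± 0.29 over the NSC days. Wnt5a, a secreted cue for Ryk and Ror receptors, was lower in NBN than in BP (-2.02). Reln, a secreted cue that is also on the Cajal-Retzius marker list, was higher in NBN than in NSC (2.01). The chemokine Cxcl12 rose in NSC (2.76) and in NBN (1.56), and its scavenging receptor Ackr3 fell in BP (-3.86) and in NBN (-1.43).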

How the data were processed

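The deposited table holds TPM per gene in 63 bulk RNA-seq libraries, made by the authors; the submitters' processing notes name kallisto 0.43.0 and the builds GRCm38.p2 and mm10. Each library sums to 999998 to 1000002 TPM, with 16823 to 21890 genes above 0. The file holds no counts, so the depth of each library is unknown, and no counting intervals or floors are given; the number of libraries limits the precision.

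Values were used as log2(TPM + 1). limma 3.58.1 (R 4.3.3, trend) was fitted once over all 19 groups with 1 mean per group, on the 15231 of 23078 genes that reached 1 TPM in 3 or more libraries. Cell types were compared over the days they share, weighting days equally, and changes over days are the linear slope over group means multiplied by the span. Fold changes on this scale understate those of low genes. A call needed both an adjusted p (Benjamini-Hochberg, over all tested genes) below 0.05 and 1 log2 unit of change or more. Per comparison, up to 8 called members in each direction with a group mean of at least 5 TPM are given with their test, and up to 3 called genes of each pathway list. The members and lists were chosen with earlier results of these data known. For the symbols Mical3 and Flrt3, which have more than 1 row, the row with the highest mean was used.

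Promoter windows came from a RefSeq table on GRCm38.p6, matched by symbol for 54 of 64 members. The fit was tested on simulated data. Tables and figures used Python 3.11.15, pandas 2.3.3 and matplotlib 3.10.9. Alternatives were other pseudocounts, filters and scalings, a replicate block, fits on fewer libraries, and leaving out each library or day.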

Additional observations from a re-analysis of the deposited data

Results flagged for a closer look

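In groups of 4 to 10 libraries, each of 35 named members was examined in each group. A case was 1 library lying apart from the rest by Dixon's criterion at 95%, and 13 cases were found. They are counted out of all pairs of member and group, which are several times as many as the members. Chance alone marks about 1 in 20 of such pairs, so the count is not far above chance. Many of the cases may therefore be chance. In NBN, E17.5 replicate 1 had 4.97 TPM of Epha6 (the others 2.86 to 3.17 TPM), and E17.5 replicate 4 had 5.57 TPM of Ntn1 (1.36 to 1.70), 0.59995 TPM of Robo3 (0.0321 to 0.107) and 58.2 TPM of Sema6b (65.3 to 66.5). In NSC, E12.5 replicate 1 had 1.75 TPM of Slit3 (1.12 to 1.21), and E14.5 replicate 1 had 0.0779 TPM of Epha6 (0.275 to 0.306) and 3.65 TPM of Unc5b (5.89 to 6.10). In BP, E14.5 replicate 2 had 57.9 TPM of Nrp1 (92.3 to 99.6). E17.5 replicate 2 of BP had 138 TPM of Epha4 (228 to 240) and 78.0 TPM of Plxna4 (101 to 104), and replicate 3 had 13.8 TPM of Plxnd1 (4.65 to 5.67). E17.5 replicate 4 of BP had 13.8 TPM of Slit3 (6.64 to 7.35) and 18.9 TPM of Unc5c (1.18 to 2.51).

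The change over days differed between cell types by a test of the difference itself for 20 values of named members. For NSC minus BP these were Unc5c (2.51), Efna3 (2.34), Plxna4 (2.07), Sema6a (1.72), Robo3 (1.70), Sema4a (1.69), Plxnd1 (1.68), Slit1 (1.603), Sema5b (-1.01), Unc5b (-1.10), Epha4 (-1.13), Slit3 (-1.31), Ntn1 (-1.53) and Ephb4 (-2.42). For NBN minus BP they were Epha6 (1.82), Nrp2 (1.70), Nrp1 (1.64), Sema5b (-1.12), Slit1 (-1.45) and Ephb1 (-1.64).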

How the results depend on the processing

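Of 6909 alternative values of the 91 named member results, 6700 kept direction and side of the threshold, 194 fell below the threshold and 15 reversed. Most of these values leave out 1 library, often one outside the comparison, where the log2 change cannot move. Only 24 results were called under every alternative. A family level counted as moved at a shift of 1 SD over the libraries of a cell type. Leaving out 1 library cannot shift a mean that far, so those settings could not decide this. Under median-of-ratios scaling, the only other setting used for family levels, none moved. Counts of called members over single left-out libraries ran, higher then lower, 2 to 2 and 3 to 5 (NSC against BP), 9 to 10 and 11 to 13 (NBN against BP), 2 to 3 and 9 to 10 (NBN against NSC), 23 to 27 and 6 to 7 (NSC days), 9 to 14 and 8 to 11 (BP days), 5 to 7 and 1 to 3 (NBN days; 1 without NBN E17.5 replicate 2, 3 without NSC E12.5 replicate 1), 13 to 17 and 3 to 9 (days, NSC against BP; 3 without NSC E12.5 replicate 1, 9 without NSC E12.5 replicate 3), and 1 to 3 and 2 to 3 (days, NBN against BP; 1 without BP E15.5 replicate 1).

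Other counts that moved were as follows, and the cause was not tested. The shares of all genes called in these settings are not given here. A pseudocount of 0.1 gave 4 higher for NSC against BP; a pseudocount of 5 gave 0 higher there, 3 lower over NSC days and 3 lower slopes for NSC against BP; quantile scaling gave 0 higher for NSC against BP. Without E18.5, 1 was higher in NBN against NSC, 10 were lower over NSC days, and 1 slope was higher and 1 lower for NBN against BP. With only the libraries compared, 4 were lower over NBN days and 6 slopes lower for NBN against BP. The next settings were added after the data were seen. Without the E12.5 NSC libraries, 0 were higher in NSC against BP, 4 lower over NBN days, 3 slopes lower for NSC against BP and 5 for NBN against BP. With only E15.5 to E18.5, 1 was higher in NSC against BP, 9 rose and 2 fell in NSC, 4 rose and 1 fell in BP, 4 fell in NBN, and 4 slopes were higher and 3 lower for NSC against BP. With the neuron marker covariate, 1 was lower in NSC against BP, 3 higher in NBN against BP, 0 higher in NBN against NSC, 7 rose in NSC, 1 fell in NBN, and 1 slope was higher and 3 lower for NSC against BP. Leaving out the E17.5 NSC libraries moved no count by more than 1.5 times.

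Reversed values within E15.5 to E18.5 were, over NSC days, Sema6b (-0.11), Sema7a (-0.22), Efna5 (0.96), Ephb4 (0.44), Robo3 (0.18) and Ntn1 (1.75), over BP days Sema4a (0.37), and for the slope of NSC against BP Sema5b (0.052), Plxnd1 (-1.28), Efna3 (-0.13), Epha4 (0.0514), Slit1 (-0.20) and Ntn1 (1.06). The same slope reversed for Plxnd1 with the neuron covariate (-0.0204) and for Unc5b without the E12.5 NSC libraries (0.0295).

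With the replicate number as a block, 5 of 6 calls remained for NSC against BP and 21 of 23 for its slope. All calls remained in the other comparisons. Dcc (-0.98) and the Ntn1 slope (-1.46, adjusted p = 0.0545) were lost. The block gave each number the same effect on all days and in all cell types. It therefore could not pair libraries within a day, and it does not decide whether pairing matters. Same-numbered libraries of different cell types on a day correlated in their deviations by 0.15 on average (46 pairs, -0.47 to 0.83, 25 over 0.1). Differently numbered ones correlated by -0.05 (116 pairs, -0.66 to 0.59, 38 over 0.1). The same-numbered pairs thus ran higher on average, and a shared origin of such libraries was not tested. Neither the main fit nor the block paired same-numbered libraries within a day. Depth is unknown, which leaves low members such as Robo3, Epha6 and Slit3 without a counting limit.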

Other observations

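Some members of NSC moved over E15.5 to E18.5 in ways that the fit over all days did not call; they were picked after their values were seen. Plxnc1, the receptor of Sema7a, had 7.27, 7.18 and 6.99 TPM at E15.5 and 29.995, 33.4 and 36.2 TPM at E18.5 (1.98 ± 0.26 on the log2 scale within these days). Sema3b, a secreted class 3 semaphorin, had 0.474, 0.512 and 0.530 TPM at E15.5 and 1.43, 3.46 and 2.87 TPM at E18.5 (1.21 ± 0.14). The matching BP changes were 0.70 ± 0.26 and 0.08 ± 0.14, and tests of the differences from NSC are not given here. Sema6a in NSC was high at both ends, with 29.3, 32.3 and 31.4 TPM at E11.5, 7.45, 12.1 and 6.88 TPM at E15.5 and 27.5, 29.5 and 33.6 TPM at E18.5, and its change within E15.5 to E18.5 was 1.52 ± 0.32. Efna3, which rose over all NSC days, changed by -1.17 ± 0.26 in NSC within E15.5 to E18.5. The E18.5 NSC libraries had the highest radial glia marker sums of all NSC days, and the part of this in these values was not tested.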
